A study of Mus musculus with 8 samples.

Results

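Described here are 10 mouse germline genes, Dazl, Ddx4, Asz1, Smc1b, Sycp3, Sycp1, Mael, Rpl10l, Hormad1 and Piwil2, chosen by name as genes that germ cells normally switch on late, when promoter methylation has been lost. They are 10 of the 20153 gene identifiers in the table, and each had 1 entry. These genes and the lists set beside them below were chosen with earlier results of these data known. RNA was measured in 4 groups of 2 libraries, which the series calls biological replicates. Embryonic germ cells (EGCs) are pluripotent lines, here lines 4 and 7 at passage 6, grown from sorted E9.5 primordial germ cells of the Oct4gfpXCD1 strain and kept with serum and LIF on feeder fibroblasts. PGC-like cells (PGCLCs) were made from BVSC embryonic stem cells, at passage 21, that first passed through an epiblast-like state and then grew in aggregates. The iPGCs came from BVSC stem cells at the same passage by a hanging drop method. Primordial germ cells (PGCs), from which eggs and sperm descend, were the endogenous cells of E9.5 embryos of the Oct4gfpXCD1 strain. PGCLCs and iPGCs therefore differ from EGCs and PGCs in strain, origin and passage together, and these cannot be told apart. Each library started from 500 EGCs, 300 to 500 PGCLCs, 1500 iPGCs or about 250 PGCs, and the RNA was amplified. The labels name no treatment of any group.

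In mammals, many genes of meiosis and of transposon defence have CpG-rich promoters that are methylated in somatic cells. PGCs lose most DNA methylation as they migrate to and settle in the gonads, and genes such as Dazl and Ddx4 are known to come on around and after that arrival. DNA methylation and a Polycomb complex, PRC1.6, that reaches such promoters through E-box and E2F motifs are both known to hold the genes silent before then. The products act in translation in germ cells, in the piRNA pathway that silences transposons, and on the axes of meiotic chromosomes.

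Promoter windows of 250 bases upstream of the RefSeq start (GRCm38.p6) were matched for 9 of the 10 genes, all but Piwil2. Windows of 5 genes are shown because they stand at the ends of the range found. Dazl and Asz1 held neither of 2 motifs that were searched, and Mael, Sycp3 and Hormad1 held both. Ddx4 also held both, and its window is not printed because 165 of its 250 bases lie in annotated exons. Each is written 5′ to 3′ on the strand of its gene. Capitals mark the E-box CACGTG, which reads the same on both strands, and the E2F core TCCCGC on either strand (GCGGGA where it lies on the other strand). The windows are chr17:50293621-50293870 (minus strand) for Dazl, chr6:18109062-18109311 (minus strand) for Asz1, chr1:166238745-166238994 (minus strand) for Mael, chr10:88459337-88459586 (plus strand) for Sycp3 and chr3:95559427-95559676 (plus strand) for Hormad1.
Dazl: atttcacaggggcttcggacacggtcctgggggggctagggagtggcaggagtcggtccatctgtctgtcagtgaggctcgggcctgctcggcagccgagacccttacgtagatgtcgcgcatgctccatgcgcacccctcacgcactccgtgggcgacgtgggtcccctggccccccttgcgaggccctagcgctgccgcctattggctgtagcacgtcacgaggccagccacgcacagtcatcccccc
Asz1: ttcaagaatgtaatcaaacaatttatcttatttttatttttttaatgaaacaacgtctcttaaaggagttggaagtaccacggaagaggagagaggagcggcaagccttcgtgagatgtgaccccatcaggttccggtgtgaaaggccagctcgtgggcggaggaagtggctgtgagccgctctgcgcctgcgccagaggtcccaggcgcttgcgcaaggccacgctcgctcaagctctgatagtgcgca
Mael: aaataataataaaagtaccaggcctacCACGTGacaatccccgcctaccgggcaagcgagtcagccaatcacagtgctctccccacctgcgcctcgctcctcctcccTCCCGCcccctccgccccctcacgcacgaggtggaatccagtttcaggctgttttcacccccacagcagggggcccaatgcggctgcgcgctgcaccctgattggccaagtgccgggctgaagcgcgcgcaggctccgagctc
Sycp3: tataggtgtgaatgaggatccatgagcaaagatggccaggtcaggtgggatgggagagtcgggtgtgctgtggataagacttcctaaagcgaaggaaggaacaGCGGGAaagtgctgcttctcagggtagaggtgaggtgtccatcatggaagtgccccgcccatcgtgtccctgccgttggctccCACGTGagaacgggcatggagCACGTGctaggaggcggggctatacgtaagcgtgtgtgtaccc
Hormad1: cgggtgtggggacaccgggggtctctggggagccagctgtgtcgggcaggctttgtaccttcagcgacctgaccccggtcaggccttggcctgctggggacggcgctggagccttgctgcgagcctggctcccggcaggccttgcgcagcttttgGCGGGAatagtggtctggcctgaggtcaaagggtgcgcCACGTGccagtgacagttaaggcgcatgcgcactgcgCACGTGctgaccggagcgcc

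The E-box was present in 5 of the 9 windows (55.6%), those of Ddx4, Sycp3, Sycp1, Mael and Hormad1, and in 7.03% of the 14620 windows of genes in the table. Sycp3 and Hormad1 each held it at 2 places. The E2F core was present in 6 of 9 (66.7%), those of Ddx4, Smc1b, Sycp3, Mael, Rpl10l and Hormad1, against 23.1%. Both motifs were present in 4 of 9 (44.4%), against 2.1%. In these windows no E-box overlapped an E2F core. In the Ddx4 window both motifs lie within the 165 bases of annotated Ddx4 exons. In the Smc1b window 137 of the 250 bases lie in annotated exons of Ribc2 and Smc1b. The ratio of observed to expected CpG was 1.21 in Smc1b, 1.00 in Ddx4, 0.90 in Asz1, 0.89 in Sycp1, 0.75 in Mael, 0.71 in Dazl, 0.67 in Hormad1, 0.64 in Sycp3 and 0.56 in Rpl10l. The median of the 9 windows was 0.75, against 0.59 for all windows of genes in the table, so most of these promoters lay in the CpG-rich part of the distribution and Rpl10l did not. Both motifs contain a CpG, and the windows compared were not matched for CpG content. The median number of CpG was 18 in the 9 windows and 11 in those of genes in the table. The part of CpG content in the motif shares was not tested. These are letters in a window, not sites shown to be bound or methylated, and methylation was not measured in these libraries.

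**Figure D1:**
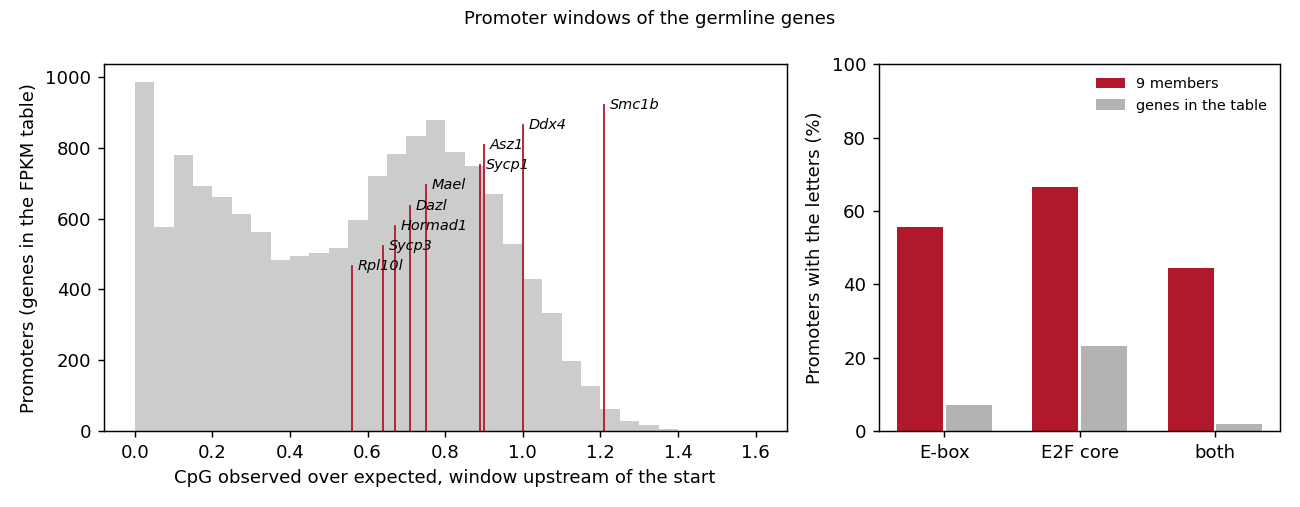
Left, histogram of the observed over expected CpG ratio in the 250 bases upstream of the start for 14620 genes in the table, with the 9 matched genes as red lines whose heights only separate their names; 8 of the 9 lie above 0.59, the median of all. Right, percent of windows with the E-box, the E2F core or both, in red for the 9 genes and in grey for genes in the table; 44.4% of the 9 windows and 2.1% of windows of genes in the table hold both.

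Levels are in FPKM, fragments per kilobase of transcript adjusted for the size of the library, so they can be compared between genes. Depth was not stated. Read from the steps between low values it was about 15.9 to 19.8 M reads in 6 libraries, 8.38 M in PGCLC library 1 and 2.67 M in iPGC library 1. A single read of Dazl was worth about 0.135 FPKM in iPGC library 1 and 0.0182 to 0.043 FPKM in the others. Germ cell markers (Dppa3, Prdm1, Prdm14, Tfap2c, Nanos3, Dnd1 and Kit) summed to 61.3 and 124 FPKM in EGCs, 885 and 505 in PGCLCs, 500 and 417 in iPGCs and 497 and 780 in PGCs, so EGCs lay below the other 3 groups. Of feeder cell RNA in EGCs there was little sign, as 3 fibroblast collagens summed to 0.0142 and 0 FPKM in lines 4 and 7. The 2 PGC libraries stood apart from each other. PGC library 1 held 126 FPKM of 4 blood markers, 137 FPKM of 3 endoderm markers and 37.9 FPKM of 2 mesoderm markers, against 14.3, 0 and 0 FPKM in PGC library 2, and the other groups held at most 0.308 FPKM of the blood markers. One of these blood markers, S100a9, was listed at 0 in EGCs, PGCLCs and iPGCs and was at 15.6 and 8.77 FPKM in PGCs, and passed in each of these 3 comparisons with PGCs (limma adjusted p = 0.0301 in EGCs, 0.0273 in PGCLCs and 0.0256 in iPGCs). The part of these cells in the results below was not tested.

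The 10 genes together were highest in the 2 kinds of germ cells made from BVSC stem cells. Their summed level was 24.0 and 18.7 FPKM in EGCs, 79.9 and 52.5 FPKM in PGCLCs, 51.7 and 43.4 FPKM in iPGCs, and 7.85 and 9.76 FPKM in PGCs. The groups did not overlap in this sum. Of the 10 genes, 6 and 5 were at 1 FPKM or more in the EGC lines, 9 and 8 in PGCLCs, 7 and 9 in iPGCs, and 2 and 2 in PGCs. Of all 20153 genes, 8677 and 9280 reached that level in the EGC lines, 9157 and 9722 in PGCLCs, 9836 and 10039 in iPGCs, and 8259 and 7991 in PGCs. Of 5 pluripotency markers (Pou5f1, Nanog, Sox2, Zfp42 and Esrrb), Nanog and Esrrb, 2 of 5, had all 4 PGCLC and iPGC libraries above all EGC and PGC libraries, as 8.10% of the 15250 genes above 0 in a library did. Nanog, a core factor of pluripotent cells that PGCs also use, was at 46.9 and 45.3 FPKM in EGCs, 81.2 and 82.6 FPKM in PGCLCs, 73.2 and 90.9 FPKM in iPGCs, and 6.69 and 16.1 FPKM in PGCs. It passed against PGCs in PGCLCs (limma adjusted p = 0.042) and in iPGCs (0.0426), and its part in the levels of the 10 genes was not tested. In bulk RNA a higher share of expressing cells and more RNA per cell cannot be told apart.

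**Figure D2:**
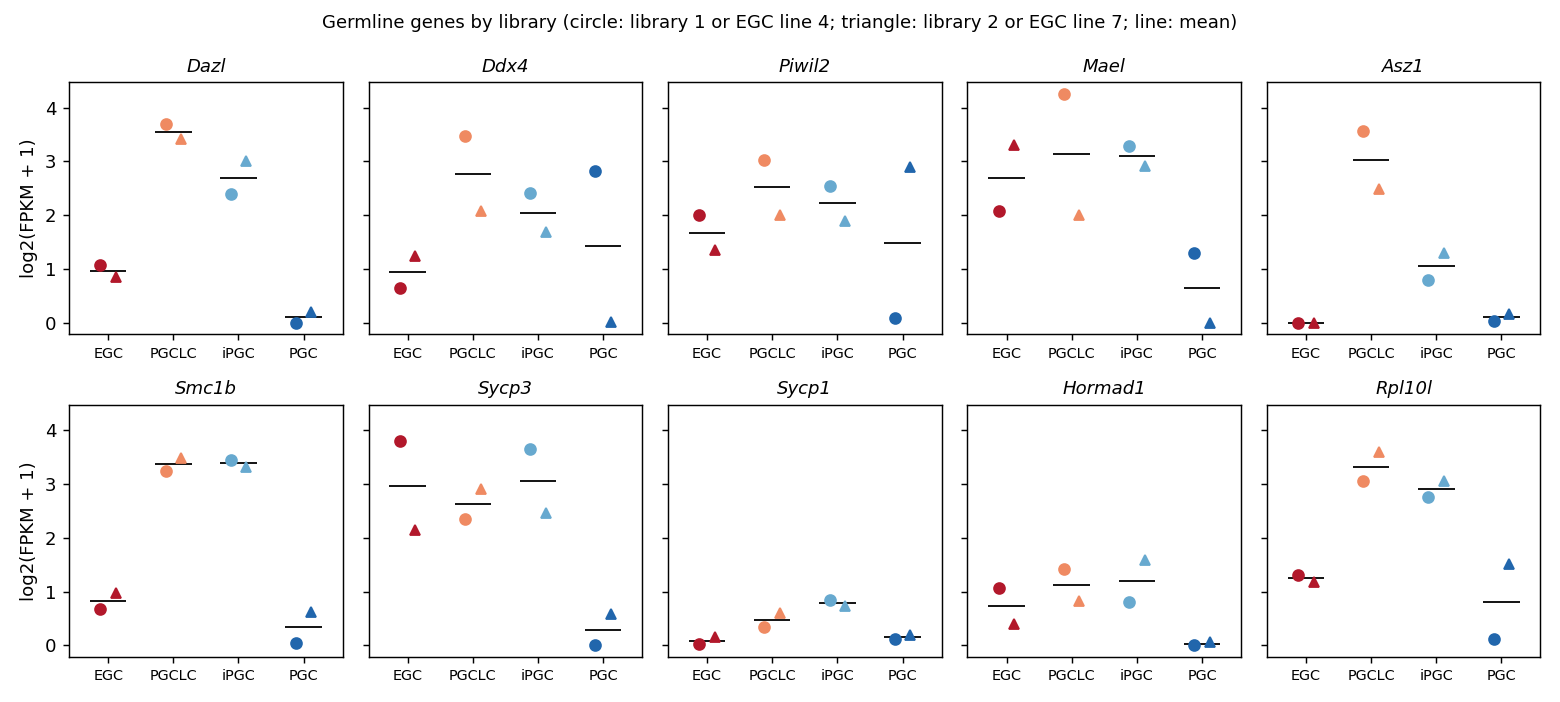
Level of each of the 10 genes as log2(FPKM + 1) in EGCs, PGCLCs, iPGCs and PGCs; each point is a library (circle, library 1 or EGC line 4; triangle, library 2 or EGC line 7) and each line the mean of 2. Dazl, Asz1, Smc1b, Sycp1 and Rpl10l have all PGCLC and iPGC points above all EGC and PGC points, while Ddx4 and Piwil2 each have 1 PGC library near 0 and 1 in the range of the PGCLCs.

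Dazl (chr17:50279395-50293636, minus strand, GRCm38), an RNA-binding protein that controls translation in germ cells, separated all 4 groups. Asz1 did too, but with few reads in most libraries. Dazl was at 1.12 and 0.805 FPKM in EGCs, 11.9 and 9.65 FPKM in PGCLCs, 4.26 and 7.00 FPKM in iPGCs, and 0 and 0.156 FPKM in PGCs. No 2 groups overlapped. The level in PGC library 2 came to about 7.53 reads and those in PGCLCs to about 278 and 477 reads. The window printed above for Dazl held neither motif and 20 CpG.

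Of the 4 piRNA genes, Asz1 and Mael were low in PGCs, and Ddx4 and Piwil2 were divided between the PGC libraries. Asz1 (chr6:18050964-18109061, minus strand), a scaffold of germ granules at mitochondria, was listed at 0 in both EGC lines and was at 10.8 and 4.59 FPKM in PGCLCs, 0.750 and 1.47 FPKM in iPGCs, and 0.0271 and 0.123 FPKM in PGCs. PGCLCs lay above iPGCs and iPGCs above PGCs without overlap, and PGC values amounted to about 1.15 and 4.58 reads. The value in iPGC library 1 came to about 4.29 reads, each worth about 0.175 FPKM there. The steps from iPGCs to PGCs and from PGCs to EGCs thus rest on few reads. Mael (chr1:166201201-166238747, minus strand), the Maelstrom protein of germ granules, was at 3.23 and 8.93 FPKM in EGCs, 18.1 and 3.03 FPKM in PGCLCs, 8.73 and 6.51 FPKM in iPGCs, and 1.46 and 0 FPKM in PGCs. Every library of the other 3 groups lay above both PGC libraries, and those 3 groups overlapped each other.

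Ddx4 (chr13:112598333-112652475, minus strand), the Vasa RNA helicase, was at 0.574 and 1.38 FPKM in EGCs, 10.1 and 3.20 FPKM in PGCLCs, 4.30 and 2.23 FPKM in iPGCs, and 6.10 and 0.0183 FPKM in PGCs. PGC library 1 thus had about 340 reads of Ddx4 and PGC library 2 about 0.895 of a read, while both EGC lines lay below both PGCLC and both iPGC libraries. Piwil2 (chr14:70372477-70429383, minus strand), a Piwi protein that binds piRNAs, was at 3.01 and 1.56 FPKM in EGCs, 7.12 and 3.04 FPKM in PGCLCs, 4.86 and 2.71 FPKM in iPGCs, and 0.0642 and 6.40 FPKM in PGCs. Here PGC library 2 was the high one, with about 525 reads against about 6.01 in library 1. The gene that was high in each PGC library was near 0 in the other, so for these 2 genes the spread between the PGC libraries was wider than any distance between group means.

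Of the 4 genes of the meiotic chromosome axis, Smc1b (chr15:85064689-85131964, minus strand), a cohesin subunit made in meiosis, was at 0.602 and 0.959 FPKM in EGCs, 8.45 and 10.2 FPKM in PGCLCs, 9.84 and 8.96 FPKM in iPGCs, and 0.0366 and 0.546 FPKM in PGCs. PGCLCs and iPGCs overlapped, and both lay above EGCs, which lay above PGCs. Ribc2, whose start lies 114 bases from Smc1b on the other strand, was listed at 0 in all 8 libraries.

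Sycp3 (chr10:88459569-88473236, plus strand), a protein of the axial elements of synapsing chromosomes, was at 12.9 and 3.39 FPKM in EGCs, 4.11 and 6.45 FPKM in PGCLCs, 11.6 and 4.51 FPKM in iPGCs, and 5.85e-72 and 0.496 FPKM in PGCs. The other 3 groups overlapped each other and lay above PGCs, where library 1 had in effect no signal. Its entry is uncertain, because 43% of the 50-base windows of its transcripts lie in Chpt1 on the opposite strand and any use of strand is not given in the sources used here. Chpt1 itself was at 3.44 and 0.723 FPKM in EGCs, 1.10 and 5.60 FPKM in PGCLCs, 3.82 and 4.59 FPKM in iPGCs, and 0.529 and 5.97 FPKM in PGCs. The part of Chpt1 reads in the Sycp3 levels was not tested.

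Hormad1 (chr3:95559677-95587671, plus strand), which marks unsynapsed chromosome axes, was at 1.09 and 0.322 FPKM in EGCs, 1.66 and 0.778 FPKM in PGCLCs, 0.741 and 2.00 FPKM in iPGCs, and 0 and 0.0413 FPKM in PGCs. The other 3 groups overlapped each other and all lay above PGCs, in which at most about 0.943 of a read was present. Hormad1 in iPGC library 1 came to only about 2.59 reads. Of its transcripts' 50-base windows, 22.9% also occur in the predicted genes Gm15529 and Gm7167. Sycp1 (chr3:102818499-102936100, minus strand), the transverse filament that joins paired chromosomes, stayed under 1 FPKM in every library and was not tested for that reason. It was at 0.0120 and 0.119 FPKM in EGCs, 0.265 and 0.527 FPKM in PGCLCs, 0.797 and 0.657 FPKM in iPGCs, and 0.0823 and 0.143 FPKM in PGCs. iPGCs lay above PGCLCs and PGCLCs above the other groups. But the iPGC values rested on about 6.88 and 37.7 reads and the PGCLC values on about 7.19 and 30.4 reads. Of the Sycp1 windows, 5.47% recur in other genes, among them the pseudogene Sycp1-ps1.

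Rpl10l (chr12:66283379-66284401, minus strand) is a single-exon copy of the X-linked ribosomal protein gene Rpl10 and is known to supply that protein when the X chromosome is silent in male meiosis. It was at 1.48 and 1.27 FPKM in EGCs, 7.30 and 11.0 FPKM in PGCLCs, 5.77 and 7.32 FPKM in iPGCs, and 0.0801 and 1.84 FPKM in PGCs. PGCLCs and iPGCs overlapped and lay above the other 2 groups, which overlapped as well. Its parent Rpl10 was at 15.8 and 41.3 FPKM in EGCs, 14.2 and 17.7 FPKM in PGCLCs, 19.5 and 15.8 FPKM in iPGCs, and 16.8 and 45.5 FPKM in PGCs, and so did not share the order of Rpl10l. Of the 50-base windows of Rpl10l, 7.6% recur in another annotated gene, the predicted gene Gm14460, and none in Rpl10.

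Each pair of groups was compared in limma on log2(FPKM + 1), with 9 of the 10 genes among the 11083 that reached 1 FPKM in no fewer than 2 libraries. All tested genes had a median shift of their own, of 0.44 in PGCLCs and 0.47 in iPGCs relative to PGCs on the log2 scale, so differences are given relative to that shift, while p-values test the difference before the shift. Counts of genes at an unadjusted p under 0.05 hold both directions. EGCs, PGCLCs and iPGCs were all set against the same 2 PGC libraries. A gene kept by the filter through its high group had to differ somewhat, so medians over the 9 are a description only. Differences on this scale understate the change of genes with low values.

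In PGCLCs against PGCs, Dazl was the one gene of the 9 that passed, and 1.06% of all tested genes did (0.938% counting those higher in PGCLCs). An unadjusted p under 0.05 was found for 6 of the 9 and for 19.5% of all tested genes. It was higher in PGCLCs by 3.01 ± 0.57 relative to all genes (log2 difference ± SE, n = 2 against 2, limma adjusted p = 0.042). The call was kept without PGC library 2 (3.55 before the shift, limma adjusted p = 0.0428) and lost without PGC library 1 (3.34, 0.0726). Over 15 alternative settings it was kept in 2 and lost in 13, with a limma adjusted p of 0.0313 to 0.336. Smc1b had a relative difference of 2.59 ± 0.57 (limma adjusted p = 0.0545), Asz1 2.49 ± 0.58 (0.0573) and Rpl10l 2.08 ± 0.66 (0.0961), which miss the threshold. Without PGC library 2 Smc1b passed (3.31 before the shift, limma adjusted p = 0.0465). For Mael (2.05 ± 0.89) and Sycp3 (1.90 ± 0.76) the limma adjusted p was 0.174 and 0.147, and it was 0.327 for Hormad1 and higher for Ddx4 and Piwil2. Both PGCLC libraries lay above both PGC libraries for 8 of the 10 genes, all but Ddx4 and Piwil2, and for 27.2% of the 15250 genes above 0 in a library. The median log2 difference of the 9 was 2.49, against 0.44 over all tested genes.

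In iPGCs against PGCs, 0 of the 9 passed in limma and 5 had an unadjusted p under 0.05, against 0.794% and 19.5% of all tested genes. Smc1b came nearest, with a relative difference of 2.57 ± 0.57 (limma adjusted p = 0.0577), followed by Dazl at 2.13 ± 0.57 (0.0782). For Sycp3 (2.30 ± 0.76), Rpl10l (1.63 ± 0.66) and Mael (1.98 ± 0.89) the limma adjusted p was 0.117, 0.145 and 0.184. With a pseudocount of 0.1 in place of 1, Dazl passed (5.12 before the shift, limma adjusted p = 0.0484). Both iPGC libraries lay above both PGC libraries for the same 8 of 10 genes as in PGCLCs, and for 33.9% of genes above 0.

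In EGCs against PGCs, 0 of the 9 passed in limma and 2, Sycp3 and Mael, had an unadjusted p under 0.05, against 0.740% and 17.2% of all tested genes. Sycp3 had a relative difference of 2.61 ± 0.76 (limma adjusted p = 0.138) and Mael of 1.98 ± 0.89 (0.285). Dazl lay at 0.80 ± 0.57, Smc1b at 0.42 ± 0.57 and Asz1 at -0.17 ± 0.58. Both EGC lines lay above both PGC libraries for Dazl, Smc1b, Sycp3, Mael and Hormad1, 5 of 10 against 20.6% of genes above 0, and below them for Asz1, 1 of 10 against 16.0%.

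**Figure D3:**
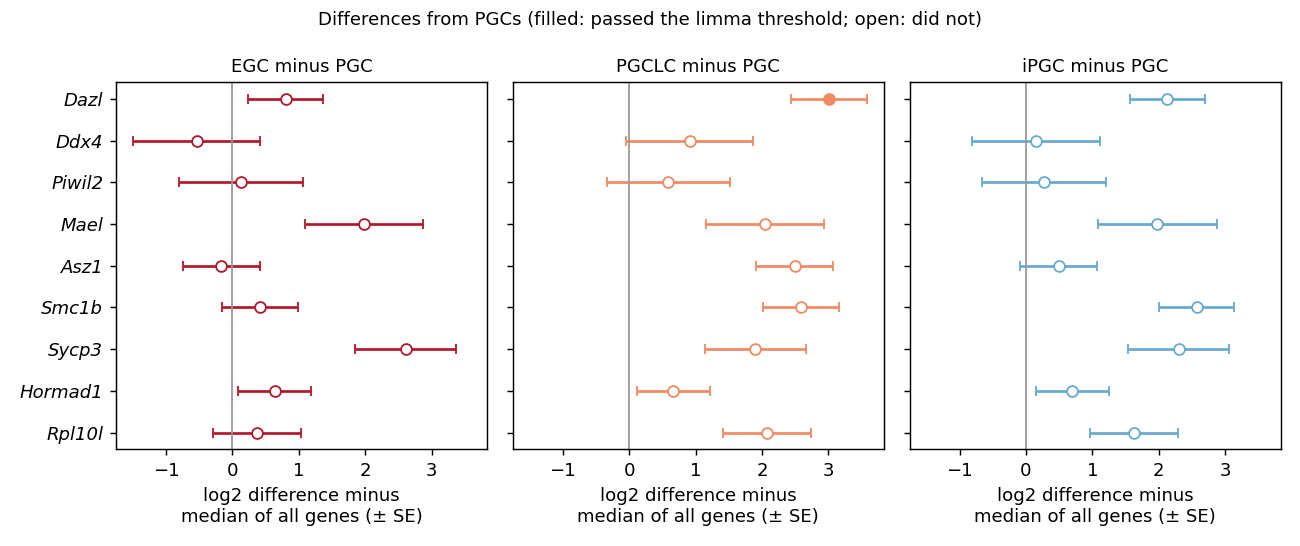
Log2 difference from PGCs of the 9 tested genes, minus the median of all tested genes, in EGCs, PGCLCs and iPGCs (points; bars are ± 1 SE from limma, 2 libraries against 2). The filled point, Dazl in PGCLCs at 3.01, is the one that passed the threshold; Mael and Sycp3 lie near 2 or above in all 3 panels and Ddx4 and Piwil2, between -0.54 and 0.91, have the widest bars.

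PGCLCs and iPGCs, made from the same stem cells, could not be told apart at the threshold for any of the 9 genes. In PGCLCs against iPGCs 0 of 9 passed in limma and 1, Asz1, had an unadjusted p under 0.05, against 0.0180% and 4.68% of all tested genes. Asz1 was 1.97 ± 0.58 higher on the log2 scale with both PGCLC libraries above both iPGC libraries (limma adjusted p = 0.853). Dazl lay at 0.86 ± 0.57, Rpl10l at 0.42 ± 0.66 and Smc1b at -0.01 ± 0.57. Asz1 and Dazl were the 2 of 10 genes with both PGCLC libraries above both iPGC libraries (13.8% of genes above 0), and Sycp1 the 1 with both below (18.2%). With 2 libraries a group, a difference that misses the threshold does not show equal levels.

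EGCs were set against the germ cells made from stem cells in the same way. In EGCs against PGCLCs 0 of 9 passed in limma and 4, Asz1, Dazl, Smc1b and Rpl10l, had an unadjusted p under 0.05, against 0.0993% and 13.9% of all tested genes. Asz1 had a relative difference of -2.64 ± 0.58 (limma adjusted p = 0.12), Dazl of -2.20 ± 0.57 (0.155), Smc1b of -2.15 ± 0.57 (0.155) and Rpl10l of -1.69 ± 0.66 (0.249). Both EGC lines lay below both PGCLC libraries for 7 of 10 genes, all but Sycp3, Mael and Hormad1, and for 27.1% of genes above 0. In EGCs against iPGCs 0 of 9 passed in limma and 3, Smc1b, Dazl and Rpl10l, had an unadjusted p under 0.05, against 0.117% and 10.3% of all tested genes. Smc1b lay at -2.15 ± 0.57 (limma adjusted p = 0.266), Dazl at -1.33 ± 0.57 (0.37) and Rpl10l at -1.26 ± 0.66 (0.441). Both EGC lines lay below both iPGC libraries for 6 of 10 genes, the same 7 less Piwil2, and for 33.1% of genes above 0. Sycp3, Mael and Hormad1 overlapped between EGCs and both of these groups.

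A single moderated F-test of any difference among the 4 groups was passed by 0 of the 9 genes in limma and by 0.505% of all tested genes, and 5 of the 9 had an unadjusted p under 0.05, against 19.2%. Smc1b (limma adjusted p = 0.0693), Dazl (0.0744) and Asz1 (0.0973) came nearest. In Dazl, Asz1, Smc1b, Sycp1 and Rpl10l, 5 of the 10, all 4 PGCLC and iPGC libraries lay above all 4 EGC and PGC libraries, as they did in 8.10% of the 15250 genes above 0. In 0 of the 10 did they all lie below, against 0.833%. That split is also the split by strain and by stem cell origin, and the 10 genes were chosen with earlier results of these data known.

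The 9 tested genes followed their mean profile across the 8 libraries to differing degrees. Pearson r with the mean standardised profile of the 9 tested genes, which includes the gene itself, was 0.98 for Dazl, 0.93 for Smc1b and 0.91 for Rpl10l. It was 0.85 for both Asz1 and Hormad1, 0.76 for Mael and 0.66 for Sycp3. Piwil2 at 0.57 and Ddx4 at 0.52 followed it least. These are descriptions over 8 libraries that share strain, origin and processing.

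Other germline genes known to be silenced by promoter methylation were likewise highest in PGCLCs and iPGCs in sum. Of 31 on the list, 28 had an entry, and their summed level was 5.15 and 5.90 FPKM in EGCs, 107 and 79.2 FPKM in PGCLCs, 54.7 and 60.2 FPKM in iPGCs, and 13.2 and 10.5 FPKM in PGCs. EGCs thus lay below PGCs in sum, but gene by gene both EGC lines lay below both PGC libraries for 1 of the 28 and above them for 2, and Xlr4a, at 6.77 FPKM in PGC library 1, and Taf7l, at 3.49 FPKM in PGC library 2, were the highest of the list in those libraries. Of the 14 tested, 0 passed in limma in any comparison, and unadjusted p-values under 0.05 numbered 1 in EGCs, 5 in PGCLCs and 5 in iPGCs against PGCs, where all tested genes gave 17.2%, 19.5% and 19.5%. Both PGCLC libraries lay above both PGC libraries for 15 of the 28 (27.2% of genes above 0), and both iPGC libraries for 15 (33.9%). All 4 PGCLC and iPGC libraries lay above all EGC and PGC libraries for 9 of the 28, against 8.10% of genes above 0. Of the 28, 23 were above 0 in a library. In PGCLCs Aard, at 49.4 and 15.8 FPKM, and Tuba3a, at 16.2 and 27.6 FPKM, were the highest of the list and made up much of its sum. Taf7l, Xlr4a, Aard and Tuba3a were named after their values were seen, and the list itself was chosen with earlier results of these data known.

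In wider lists of piRNA and meiosis genes the sums of PGCs overlapped or exceeded those of the other groups. The list called piRNA genes here also holds Tdrd3, Nanos2, Nanos3 and Dnd1, which are not genes of that pathway proper. Nanos3 and Dnd1 were also counted among the germ cell markers above. Other piRNA pathway genes, 23 with an entry, summed to 91.2 and 52.2 FPKM in EGCs, 113 and 108 FPKM in PGCLCs, 83.0 and 81.5 FPKM in iPGCs, and 35.2 and 150 FPKM in PGCs. Other meiosis genes, 37 with an entry, summed to 304 and 147 FPKM in EGCs, 449 and 368 FPKM in PGCLCs, 311 and 300 FPKM in iPGCs, and 380 and 490 FPKM in PGCs. In the piRNA sum PGC library 1 was the lowest of the 8 libraries and PGC library 2 the highest. Much of the meiosis sum was Syce2, a protein of the central element between paired chromosomes, at 172 and 242 FPKM in PGCs. Counted by gene the meiosis list stood otherwise, with 5 to 10 of the 37 genes listed at 0 in EGC, PGCLC and iPGC libraries and 14 in each PGC library. At 1 FPKM or more were 16 to 21 of the 37 in the other groups, and 13 and 16 in PGCs. Of all 20153 genes, 6533 to 8792 were listed at 0 in libraries of the other groups, and 8791 and 9533 in PGCs. Those at 1 FPKM or more numbered 8677 to 10039 in the other groups, and 8259 and 7991 in PGCs. Of 16 tested piRNA genes and 22 tested meiosis genes, 0 passed in limma in any comparison. At an unadjusted p under 0.05 in either direction, 3 piRNA genes and 9 meiosis genes were counted in PGCLCs against PGCs. The counts were 5 and 4 in iPGCs and 6 and 6 in EGCs against PGCs. The shares of all tested genes were 19.5%, 19.5% and 17.2%, so among the piRNA genes the PGCLC count, and among the meiosis genes the iPGC count, lay near that share. Of the 16 and 22 log2 differences from PGCs, 11 and 13 were above 0 in PGCLCs, 9 and 12 in iPGCs, and 6 and 9 in EGCs. All PGCLC and iPGC libraries lay above the rest for 2 of the 23 piRNA genes, Gpat2 and Rnf17, and for 4 of the 37 meiosis genes, Psmc3ip, Msh5, Mcmdc2 and Brip1, named after their values were seen. Both counts lie near the 8.10% of genes above 0 and show nothing particular to these lists.

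**Figure D4:**
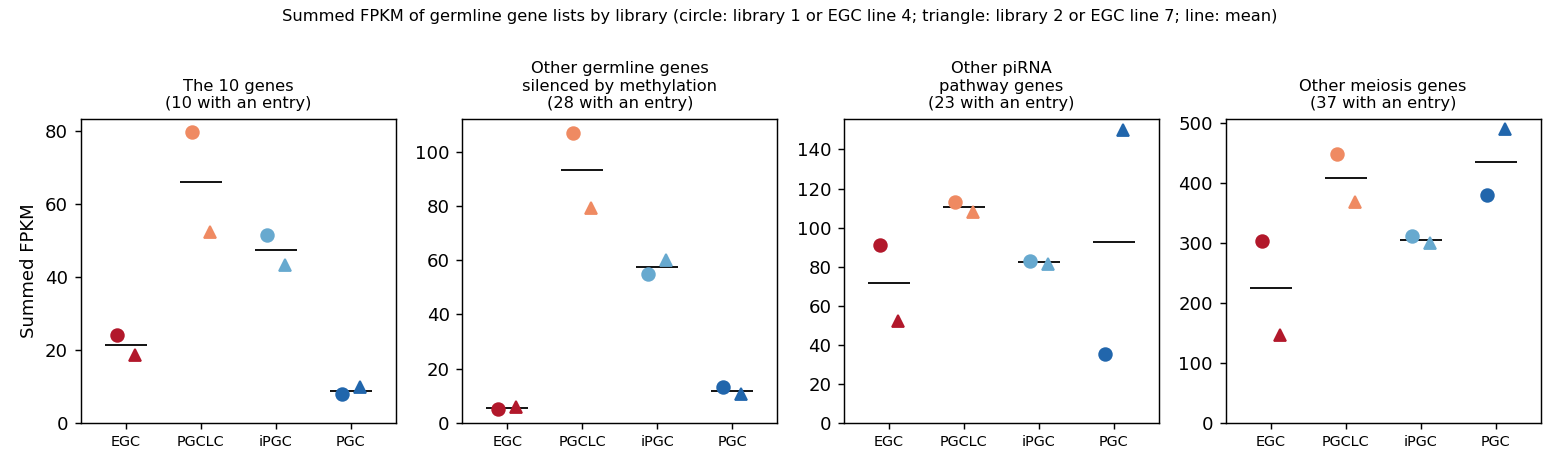
Summed FPKM per library of the 10 genes, of 28 other germline genes known to be silenced by methylation, of 23 genes on the piRNA list and of 37 other meiosis genes (circle, library 1 or EGC line 4; triangle, library 2 or EGC line 7; line, mean of 2). The piRNA list also holds Tdrd3, Nanos2, Nanos3 and Dnd1. In the first 2 panels PGCLCs and iPGCs lie above EGCs and PGCs, and in the other 2 panels the PGC libraries overlap the PGCLCs, with PGC library 1 lowest and PGC library 2 highest of all in the piRNA panel.

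Genes that set, protect or remove DNA methylation were measured in the same libraries. Dnmt3l, the cofactor of the de novo methyltransferases, was at 14.1 and 42.5 FPKM in EGCs, 13.4 and 15.6 FPKM in PGCLCs and 51.8 and 53.4 FPKM in iPGCs, and was listed at 0 in both PGC libraries. It passed against PGCs in all 3 (limma adjusted p = 0.0239 in EGCs, 0.0351 in PGCLCs and 0.0107 in iPGCs). Dnmt3b, a de novo methyltransferase, was at 66.1 and 38.8 FPKM in EGCs against 4.52 and 0.141 FPKM in PGCs and rose (limma adjusted p = 0.0488), while in PGCLCs, at 11.6 and 8.44 FPKM, and in iPGCs, at 21.3 and 14.5 FPKM, it did not pass against PGCs (0.178 and 0.11). Dppa3, known to keep maternal methylation from being lost in the zygote, fell to 40.3 and 101 FPKM in EGCs, against 409 and 574 FPKM in PGCs (limma adjusted p = 0.0488). Of the 10 such genes tested, these 3 passed against PGCs in EGCs and Dnmt3l alone passed in PGCLCs and in iPGCs. The shares of all tested genes were 0.740% in EGCs, 1.06% in PGCLCs and 0.794% in iPGCs. Dnmt3a, Tet1, Tet2, Tet3 and Tdg, also among the 10, passed in none of these comparisons. Uhrf1, which brings the maintenance methyltransferase to replicated DNA, was at 26.8 and 31.3 FPKM in EGCs, 46.0 and 24.1 FPKM in PGCLCs, 32.8 and 20.5 FPKM in iPGCs, and 13.5 and 2.08 FPKM in PGCs. Dnmt1, that methyltransferase, was at 25.3 and 24.0 FPKM in EGCs, 67.9 and 46.1 FPKM in PGCLCs, 49.5 and 31.5 FPKM in iPGCs, and 49.5 and 66.7 FPKM in PGCs.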

How the data were processed

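RNA of 8 libraries was amplified with an Ovation kit and sequenced as 50-base single-end reads, per the labels' protocols. The deposited table holds FPKM made by the authors, and TopHat2, Cufflinks and GRCm38 (mm10) are named in the submitters' processing notes; their versions, the annotation and any use of strand were not stated in those sources. A value of exactly 0 can come from an estimate that failed, and is given as listed at 0. The table has 20171 rows for 20153 identifiers, of which 18 extra rows were dropped. Coordinates and overlaps are from GENCODE M21 (GRCm38). A total of 11083 genes reached 1 FPKM in no fewer than 2 libraries and entered limma 3.58.1 (R 4.3.3) as log2(FPKM + 1), with variance trend and robust moderation, two-sided, with Benjamini-Hochberg adjustment over all of them and a threshold of 0.05. A single fit of all 8 libraries left 4 residual degrees of freedom. The limma step was tested on simulated data. Depth was estimated from the steps of low values of 2269 single-transcript genes, with 200-base fragments assumed. All 10 genes are described; other listed genes could be named where they passed, marked a cell type or regulate methylation, with the 5 most alike by r. Members and lists were chosen with earlier results of these data known. Alternatives were pseudocounts of 0.1 and 5, no filter, quantile normalization, each library left out in turn, a replicate block and fits of only the groups compared.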

Additional observations from a re-analysis of the deposited data

How the results depend on the processing

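In PGCLCs against PGCs, 1 of the 10 genes passed (Dazl) and also with a pseudocount of 0.1, and 0 passed with a pseudocount of 5, no filter, quantile normalization, only the groups compared, a replicate block, or the 6 libraries without EGCs, the last chosen after seeing the data. Leaving out each library in turn gave 0 to 2, with 2 (Dazl and Smc1b) without PGC library 2. In iPGCs against PGCs 0 passed in limma (5 of 9 had an unadjusted p under 0.05), and 1 passed with a pseudocount of 0.1, Dazl (limma adjusted p = 0.0484). Quantile normalization turned the log2 difference of Smc1b in EGCs against PGCs to -0.08 and of Asz1 in iPGCs against PGCs to -0.12. Of 461 alternative values of 33 log2 differences, 444 kept direction and side of the threshold, 13 lost the call of Dazl, 2 gained one and 2 reversed. The 33 are the differences in which the 2 groups did not overlap. Leaving out a library, dropping the filter or changing the pseudocount could therefore not reverse them. Fits of only the groups compared, the replicate block and the 6 libraries without EGCs leave each log2 difference unchanged. Only quantile normalization could reverse a difference, and it reversed 2, so the kept directions were otherwise fixed in advance. Where calls were lost the cause was not tested.

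Counts over all genes also depended on the fit. Those of 82 in EGCs, 117 in PGCLCs and 88 in iPGCs against PGCs ran from 7 to 107, 0 to 289 and 5 to 222 with a library left out. Other settings gave 0 to 110, 0 to 183 and 0 to 166. EGCs against PGCLCs gave 11 (0 to 39 with a library left out, otherwise 7 to 14), EGCs against iPGCs 13 (5 to 17 and 8 to 16) and PGCLCs against iPGCs 2 (0 to 5 and 0 to 4). The F-test gave 56 (10 to 100 and 12 to 98). Libraries of equal number in PGCs, iPGCs and PGCLCs showed no shared deviations (r of -0.03 to 0.06 over genes). That check cannot tell whether they were prepared together, and the number was not used as a pairing in the main fit. With the replicate block 2 genes in PGCLCs and 10 in iPGCs against PGCs were called, against 39 and 32 in the same 6 libraries without it, and Dazl in PGCLCs had a limma adjusted p of 0.129. No paired analysis was possible because EGC lines 4 and 7 share no number with other groups in comparisons with EGCs. The depth of about 2.67 M reads in iPGC library 1 limits levels there, where 1 read of Rpl10l is worth about 0.455 FPKM.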

Other observations

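Genes known to hold germline promoters silent were expressed in all groups. Of 18 such genes, among them the PRC1.6 subunits E2f6, Mga, Max, L3mbtl2 and Pcgf6, all were tested and 0 passed in limma in any comparison. At an unadjusted p under 0.05, 1 was counted in EGCs, 1 in PGCLCs and 2 in iPGCs against PGCs, below the 17.2%, 19.5% and 19.5% of all tested genes. Mga, the scaffold of that complex, was at 104 and 58.0 FPKM in EGCs, 70.5 and 67.1 FPKM in PGCLCs, 48.5 and 71.3 FPKM in iPGCs, and 67.6 and 176 FPKM in PGCs. E2f6 was at 3.99 and 3.89 FPKM in EGCs, 8.99 and 3.88 FPKM in PGCLCs, 7.34 and 4.95 FPKM in iPGCs, and 5.69 and 13.4 FPKM in PGCs. PGC library 2 was the highest of the 8 for both. For 2 of the 18, Rybp and Hdac1, all PGCLC and iPGC libraries lay above all EGC and PGC libraries (8.10% of genes above 0), and for 1, Ehmt1, all lay below (0.833%). Ehmt1, a histone H3 lysine methyltransferase, was at 25.3 and 27.3 FPKM in EGCs, 20.7 and 20.8 FPKM in PGCLCs, 11.3 and 10.6 FPKM in iPGCs, and 25.1 and 51.7 FPKM in PGCs.

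The 5 genes whose levels followed the mean profile of the 9 tested germline genes most closely over the 8 libraries, among 5661 genes with a mean of at least 10 FPKM in a group, were Bsg, Galnt6, Atraid, Klhl13 and Anxa7, with a Pearson r of 0.991, 0.986, 0.983, 0.982 and 0.981. Bsg, a surface glycoprotein that escorts lactate transporters, was at 58.4 and 60.4 FPKM in EGCs, 161 and 121 FPKM in PGCLCs, 126 and 109 FPKM in iPGCs, and 32.9 and 42.3 FPKM in PGCs. Galnt6, an enzyme that starts mucin-type glycosylation, was at 2.93 and 1.44 FPKM in EGCs, 14.9 and 5.79 FPKM in PGCLCs, 7.38 and 6.80 FPKM in iPGCs, and 0 and 0.0355 FPKM in PGCs. For both genes the group means ran in the order of those of Dazl, and libraries of a group share strain, origin and processing.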
